A study of Rattus norvegicus with 12 samples.

Results

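Pericentral hepatocyte nuclei were taken from the 4 single-nucleus RNA-seq (snRNA-seq) libraries of an atlas of healthy rat liver, in which RNA molecules of single nuclei are counted by unique molecular identifiers (UMIs). A nucleus with at least 1000 UMIs and at most 10% of its UMIs in mitochondrial genes was called a hepatocyte nucleus where Alb, Apob and Cps1 together had at least 5 UMIs. It was a member where Cyp7a1, Glul, Oat and Sult1e1 together had at least 2 UMIs and Sds, Hal, Etnppl, Aspg and Amdhd1 had 0. This gave 4214 members of 12464 hepatocyte nuclei, and the other 8250 served as the comparison. The deposited nuclear libraries held 27413 barcodes, of which 12525 passed the filter, and the whole series of 12 samples held 270029 cells, nuclei and spots.

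The study set Dark Agouti (DA) beside Lewis (LEW) rats. It cites work on orthotopic transplantation in which liver macrophages of LEW recipients stimulated T cell proliferation better than those of DA. Each strain was represented here by 2 healthy male rats, whose nuclei were isolated from snap-frozen pieces of the left median lobe and loaded on the version 3 chemistry of 10x Genomics. The labels give an age of 8 to 10 weeks and the study's methods one of 16 to 18 weeks, and this was not resolved. The rats are called DA-1, DA-2, LEW-1 and LEW-2, and values of the 4 rats are given in that order. With 2 rats per strain and no litter or extraction batch named in the labels, strain and any unrecorded batch cannot be told apart.

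Hepatocytes share out their work along the path of blood from the portal triad to the central vein. Around the central vein, WNT ligands from the vein's endothelium keep on genes for glutamine synthesis, cytochrome P450 enzymes and bile acid synthesis. Around the portal triad, hepatocytes carry out more gluconeogenesis, ureagenesis and amino acid breakdown. The marker genes of the rule follow this scheme: Glul makes glutamine from ammonia, Oat feeds ornithine into glutamate, Cyp7a1 is the rate-limiting enzyme of bile acid synthesis and Sult1e1 sulfates estrogens. Sds, Hal, Etnppl, Aspg and Amdhd1 degrade amino acids and their products.

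The members numbered 610, 858, 2016 and 730 nuclei. They made up 27.9% (95% exact binomial interval 26.0 to 29.8), 34.0% (32.2 to 35.9), 38.3% (37.0 to 39.7) and 29.2% (27.5 to 31.1) of the hepatocyte nuclei. The intervals cover counting error only. The highest share was in LEW-1 and the lowest in DA-1, and the strains overlapped. The mean of the LEW rats lay 2.83 percentage points above that of the DA rats (two-sided exact permutation test over rats, p = 0.667, smallest possible p 0.333), and without DA-1 or without LEW-1 the sign turned, to -0.232 and -1.72 points. With Sult1e1 left out of the rule the shares were 8.55 and 14.6% in DA and 16.4 and 15.7% in LEW, which did not overlap and lay 4.44 points apart (exact permutation p = 0.333, the smallest possible).

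Members held fewer UMIs than the other hepatocyte nuclei, with medians of 1402.5, 1515, 1406.5 and 1692.5 against 1708, 1874, 1663.5 and 2199. The median number of genes detected was 598, 667, 609 and 802 in members against 871, 931, 718 and 1081. A nucleus with any UMI of the 5 periportal genes could not be a member. Other hepatocyte nuclei with such a UMI had medians of 2424, 2816, 2245 and 2645 UMIs, and those without one had 1186.5, 1174, 1215.5 and 1177. Pairs of libraries shared 8 to 24 barcodes, of which 0 to 2 were members in both.

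The rule's own genes are described without a test, on CPM, the counts of a gene scaled to a common total of UMIs, of each summed class. Sult1e1 carried most of the marker sum: it stood at 2483, 2339, 1974 and 2677 CPM in members and had a UMI in 98.5, 98.5, 95.1 and 94.5% of them. Oat had a UMI in 37.0, 55.6, 56.7 and 58.6% of members, and Cyp7a1 in 28.5, 34.8, 35.1 and 37.3%. Glul was the scarcest, with a UMI in 16.1, 14.8, 16.1 and 30.1% of members. Sult1e1 was also common outside the members, with a UMI in 73.8, 69.2, 62.0 and 71.3% of the other hepatocyte nuclei. Sult1e1 was the only one of the 4 markers seen in 44.9, 32.6, 26.98 and 20.0% of members, and 30.7, 43.0, 42.8 and 53.6% would still have been members without it. A nucleus with all 4 markers was rare, at 5.41, 8.51, 5.75 and 10.4% of members.

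In droplet data free RNA can give UMIs in nuclei that do not express a gene, so the rule was applied to nuclei rich in markers of another cell type. These nuclei had also passed the hepatocyte gate, and whether they express the 4 marker genes was not tested. Of nuclei with at least 5 UMIs of sinusoidal endothelium markers, 25.2% (31 of 123), 18.2% (28 of 154), 23.8% (34 of 143) and 22.3% (37 of 166) met the member rule. The share was 29.0, 37.0, 39.9 and 30.3% among hepatocyte nuclei with at most 1 UMI of the markers of other cell types. Their median depths were 1468, 1420, 1776 and 1567 UMIs against 1557, 1739.5, 1481 and 2046. With every nucleus thinned to 1000 UMIs, Sult1e1 had a UMI in 61.8, 43.5, 49.7 and 53.0% of the endothelium-rich nuclei and in 68.2, 67.4, 61.7 and 65.2% of the others. Sult1e1 UMIs were thus also common in the endothelium-rich nuclei, at a lower share in each rat. The other markers were not lower throughout: thinned in the same way, Cyp7a1 had a UMI in 23.1% of the endothelium-rich nuclei against 18.3% of the others in LEW-1 and 12.0 against 11.8% in LEW-2, and Glul in 14.5 against 10.0% in LEW-2 and 5.19 against 5.16% in DA-2. In nuclei with at least 5 UMIs of markers of any other cell type, thinned Glul was higher in each rat. It had a UMI in 7.31, 9.20, 6.98 and 16.1% of them against 4.49, 5.16, 6.77 and 10.0%. Sult1e1 was lower there in each rat. A share at or below that in endothelium-rich nuclei was not read as expression, and the source of these UMIs was not tested. The hepatocyte gate itself kept 98.6 to 99.9% of all nuclei past the filter and so did not separate cell types.

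The label was checked against 13 pericentral genes that the rule did not use. Summed over the list, members stood at 4734, 5970, 5635 and 5505 CPM and other hepatocyte nuclei at 2322, 2952, 3836 and 3037 CPM, higher in members in 4 of 4 rats. Of 10 genes of the list that could be tested, 9 were higher in members. Lgr5, a WNT receptor partner of the innermost pericentral cells, was near the limit of detection with 0, 0, 1 and 2 UMIs in members, and Slc1a2, a glutamate transporter of the same cells, had 1, 1, 3 and 8. A list of 14 periportal genes outside the rule stood at 8599, 10231, 7206 and 8479 CPM in members and 16161, 15494, 10554 and 12157 CPM in the others, with Pck1 the largest part. Of these 14, 9 were lower and 3 higher in members. The 3 were Pigr, the receptor that carries immunoglobulin A into bile (0.88 ± 0.14), the protease Ctsc (0.80 ± 0.12) and Otc, of the urea cycle (0.50 ± 0.12). Against only the others without a periportal UMI, Pigr (-0.69) and Ctsc (-0.75) turned and were called lower, and Otc (0.08) was not called. The summed pericentral genes were thus higher in members. Neither sum is a check of the label on its own, since members hold 0 UMIs of the 5 periportal genes of the rule. The others include every nucleus set aside for holding one. Against only the others without such a UMI, Cyp2e1 (0.62), Cyp1a2 (0.94), Rgn (0.86), Axin2 (2.02), Rhbg (2.15), Slc13a3 (1.58) and Gulo (0.65) were called higher too. Aldh1a1 (-0.25) was not called and Tbx3 had no value. Of the periportal genes called above, Pck1 (1.53), Asl (1.32) and Arg1 (0.52) were higher there and Hsd17b13 (-0.81) lower, beside Pigr and Ctsc. In each rat members still held more of the periportal than of the pericentral list.

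Markers of other cell types were below these levels. Sinusoidal endothelium markers summed to 529, 359, 191 and 451 CPM in members and 510, 574, 283 and 411 CPM in other hepatocyte nuclei, and Kupffer and myeloid markers to 125 to 296 CPM in members and 208 to 283 CPM in the others. Nuclei with more than 1 UMI of such markers made up 15.2, 13.8, 10.6 and 22.3% of members and 19.8, 24.4, 16.3 and 26.3% of the others. Their part in the results was not tested. Without these nuclei the share of members was 2.08 percentage points higher in LEW than in DA, and the counts of genes are given with each comparison.

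Levels of genes outside the rule were followed over the marker sum in nuclei with no periportal UMI, to show the nuclei on both sides of the limit. Rgn, a calcium-binding lactonase enriched near the central vein, stood at 144, 151, 293 and 231 CPM at a marker sum of 0, at 244, 266, 385 and 500 CPM at a sum of 2, and at 434, 473, 461 and 685 CPM at 4 or more. Just outside the limit, at a sum of 1, it stood at 185, 210, 354 and 411 CPM. In all 4 rats Rgn was higher at each step. Other genes were less regular: Cyp1a2 went from 234 to 173 CPM between sums of 0 and 1 in DA-1 and from 478 to 430 CPM between 3 and 4 or more in LEW-1, and Gulo was lower at 4 or more than at 3 in DA-2, LEW-1 and LEW-2.

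Cyp2e1, an ethanol- and xenobiotic-oxidizing P450, went over the same steps from 1385, 1326, 1865 and 1587 CPM at a sum of 0 to 2312, 3641, 3063 and 2612 CPM at 4 or more, with a lower value at 4 or more than at 3 in DA-1 and LEW-2. Gls2, a periportal glutaminase, showed no such order: it stood at 111, 123, 125 and 138 CPM at a sum of 0 and at 80.7, 171, 78.9 and 84.9 CPM at 4 or more. Pck1, the gluconeogenic enzyme that is classed as periportal, was higher in the top class, at 5254, 6430, 4980 and 6315 CPM against 1636, 1260.5, 1160 and 1597 CPM at a sum of 0. Nuclei of the top class were also deeper, with medians of 1774, 1980, 1713 and 2182.5 UMIs against 1175, 1158, 1202 and 1148.5 at a sum of 0. Members at exactly 2 made up 29.5, 21.4, 29.1 and 20.8% of all members.

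**Figure D1:**
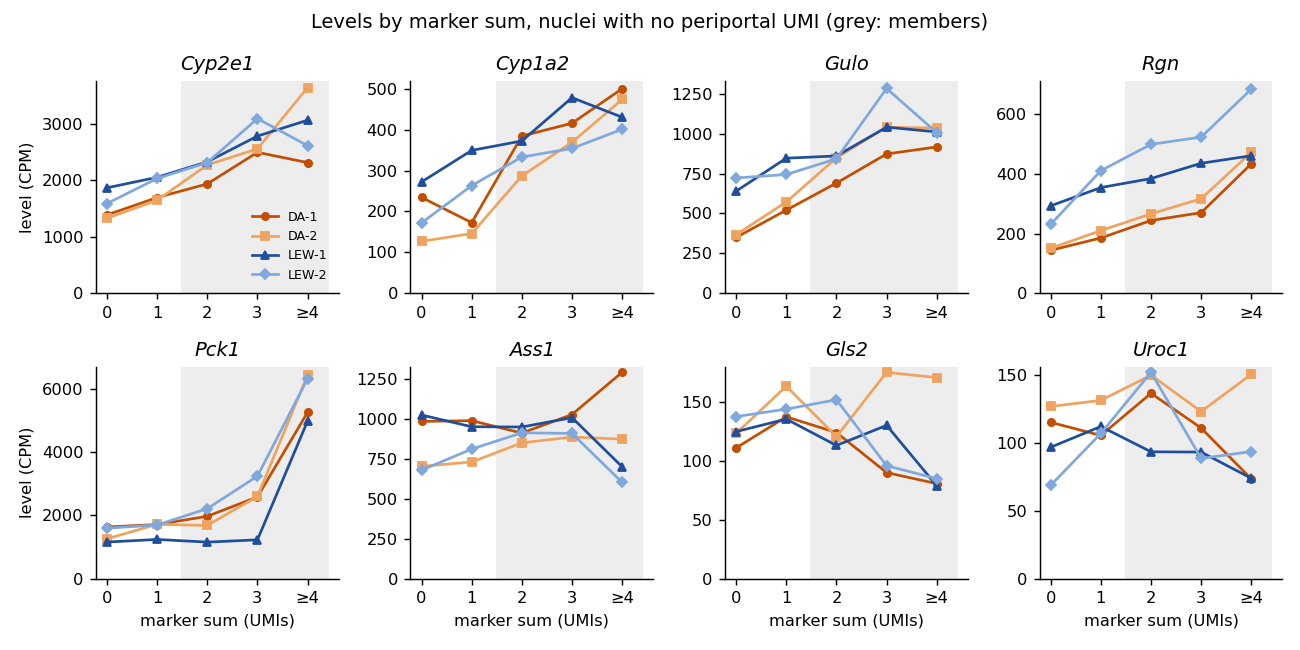
Level of 8 genes in CPM (vertical axes) against the marker sum in UMIs (horizontal axes) in hepatocyte nuclei with no periportal UMI, 1 line per rat; the grey band holds the members. Rgn is higher at every step in all 4 rats, from 144 to 434 CPM in DA-1, whereas Pck1 is highest at 4 or more and Gls2 has no common direction.

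Genes were then compared between members and other hepatocyte nuclei with UMI sums per rat, so that the 4 rats and not the nuclei were the replicates. Of 10292 genes tested, 2695 (26.2%) passed an adjusted p of 0.05 (edgeR quasi-likelihood test with the rat as a block, Benjamini-Hochberg adjustment), 1660 higher (16.1%) and 1035 lower (10.1%) in members. The direction was the same in every rat for 2529 of them, as it was for 43.9% of all genes tested. Levels in this and the later comparisons are CPM after TMM scaling, without the 12 genes of the rule and gate. Without the TMM factors 3728 genes were called, 754 higher (7.33%) and 2974 lower (28.9%), and the median log2 difference of all genes moved from -0.03 to -0.27. Of the 2695 first calls, 0 had the opposite sign on that scale, so the choice changed which genes were called. Counts of genes below are therefore given on the TMM scale, with counts on the other scale beside them for some lists.

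The comparison nuclei also decided directions. The other hepatocyte nuclei include all those with a periportal UMI, and these were the deeper ones. Against only the others without a periportal UMI, 2323 of 7868 genes were called, 1209 higher (15.4%) and 1114 lower (14.2%), but 1891 of the 2461 genes called in the first comparison and tested here had the opposite sign. Only 161 genes were called the same way in both, 112 higher and 49 lower, while 361 went from higher to lower and 351 from lower to higher. These comparison nuclei were shallower and richer in RNA of other cells in 3 of the 4 rats: 109 of 436, 181 of 492, 136 of 1274 and 127 of 348 of them had more than 1 UMI of other cell types' markers. All 9 sinusoidal endothelium markers tested were lower in members against them (median log2 difference -2.35). The part of depth and of RNA from other cells in this turn was not tested.

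The sum of 4 markers also leaned on Sult1e1. With membership set by Cyp7a1, Glul and Oat alone, 573 of 9951 genes were called, 283 higher (2.84%) and 290 lower (2.91%). Of these, 398 were also called with all 4, 7 of them in the opposite direction, and 638 of the 2680 first calls tested here had the opposite sign. Thinning every nucleus to 1000 UMIs before applying the rule gave 1232 calls of 8453 genes, 658 higher (7.78%) and 574 lower (6.79%), and leaving out nuclei with more than 1 UMI of other cell types' markers gave 2576. Genes are described below by function, with their values against periportal-free nuclei.

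**Figure D2:**
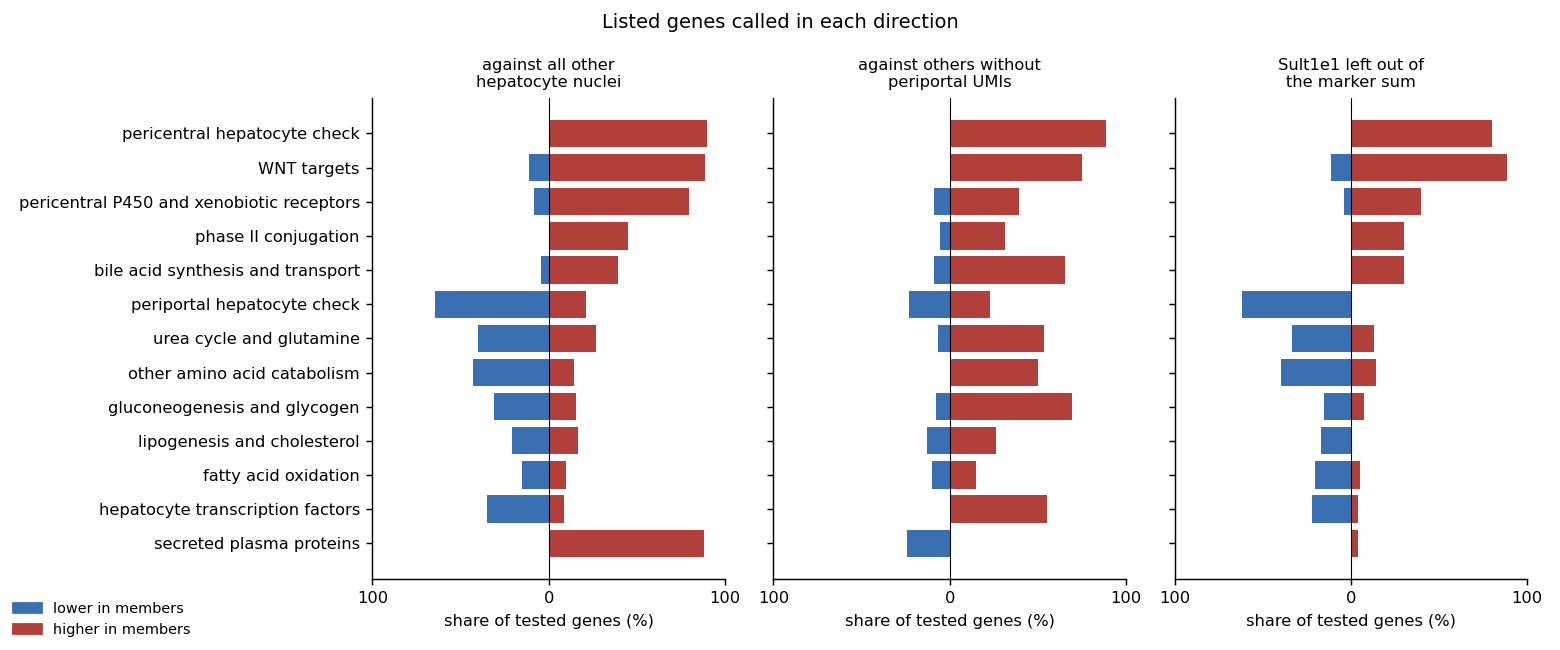
Share of the tested genes of each list (horizontal axes, percent) that were called higher (red, to the right) or lower (blue, to the left) in members, against all other hepatocyte nuclei, against others without a periportal UMI, and with Sult1e1 left out of the marker sum. Pericentral and WNT lists, which share genes, stay to the right in all 3 panels. Secreted plasma proteins go from 22 of 25 higher to 6 of 25 lower and 1 of 25 higher. The shares of all genes beside these are 16.1% higher, 14.2% lower and 2.84% higher.

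WNT target genes that could be tested were mostly higher in members. Of 18 listed 9 could be tested, and 8 of these were higher and 1 lower in members (median log2 difference 1.22, against -0.03 over all genes). The lists overlap: Cyp2e1, Cyp1a2, Rgn, Axin2, Tbx3 and Rhbg are also on the pericentral check list. Rhbg, an ammonia transporter, stood at 30.4, 29.2, 19.8 and 21.8 CPM in members and 2.33, 3.32, 5.94 and 4.59 CPM in the others (log2 difference 2.49 ± 0.24, SE, n = 4 rats, adjusted p = 1.08e-09). Cyp1a2, which oxidizes arylamines and caffeine, stood at 578, 480, 537 and 390 CPM against 114, 106, 248 and 139 CPM (1.76 ± 0.15, adjusted p = 3.65e-10). Members lay above the others in every rat for both genes, and the 2 sets of values did not overlap.

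Axin2, a feedback inhibitor that WNT signalling itself switches on, stood at 16.4, 46.9, 62.0 and 38.0 CPM against 5.43, 17.8, 29.7 and 17.0 CPM (1.22 ± 0.15, adjusted p = 1.36e-07). Cyp2e1 stood at 2811, 3663, 3590 and 2626 CPM against 862, 1541, 1861 and 1250 CPM (1.24 ± 0.14, adjusted p = 6.72e-08). Both were higher in members than in the other nuclei of the same rat, in 4 of 4 rats. Rgn (1.17 ± 0.14) and the secreted factor Lect2 (1.17 ± 0.13) were higher as well. Tbx3 (1.35), a transcription factor, and Notum (0.43), which inactivates WNT ligands, completed the 8, and the cyclin Ccnd1 was lower (-0.43). Against nuclei without a periportal UMI, Axin2 (2.02), Rhbg (2.15), Cyp1a2 (0.94), Rgn (0.86) and Cyp2e1 (0.62) stayed called, as did Notum (1.21), while Lect2 (0.15, adjusted p = 0.55) and Ccnd1 (-0.50, adjusted p = 0.051) did not and Tbx3 had no value.

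Promoter sequences of 5 of these genes are shown because members were defined or set apart by them. They are the 250 bases before the transcription start in RefSeq on build GRCr8, on which no coordinates of the deposited files are given, written 5' to 3' on the gene's strand. Capitals mark CTTTGAT or CTTTGAA on either strand, the core that TCF/LEF factors, the nuclear partners of WNT signalling, are known to bind.
Glul, chr13:68519250-68519499, plus strand: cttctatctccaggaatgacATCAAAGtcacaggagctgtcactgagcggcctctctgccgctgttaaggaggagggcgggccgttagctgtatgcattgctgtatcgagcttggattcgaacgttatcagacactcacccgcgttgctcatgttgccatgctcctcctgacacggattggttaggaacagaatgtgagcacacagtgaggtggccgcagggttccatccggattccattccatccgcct
Axin2, chr10:94398535-94398784, plus strand: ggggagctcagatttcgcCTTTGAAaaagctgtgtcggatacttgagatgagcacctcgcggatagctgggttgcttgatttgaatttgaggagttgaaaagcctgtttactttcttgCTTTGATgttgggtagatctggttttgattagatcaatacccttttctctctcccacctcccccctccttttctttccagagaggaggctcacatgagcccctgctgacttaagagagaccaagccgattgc
Cyp2e1, chr1:205269717-205269966, plus strand: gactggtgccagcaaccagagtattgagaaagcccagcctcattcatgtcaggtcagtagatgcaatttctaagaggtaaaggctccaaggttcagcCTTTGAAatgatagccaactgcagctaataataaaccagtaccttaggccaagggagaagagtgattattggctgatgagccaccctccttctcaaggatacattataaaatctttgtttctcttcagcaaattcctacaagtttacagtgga
Cyp1a2, chr8:66978150-66978399, minus strand: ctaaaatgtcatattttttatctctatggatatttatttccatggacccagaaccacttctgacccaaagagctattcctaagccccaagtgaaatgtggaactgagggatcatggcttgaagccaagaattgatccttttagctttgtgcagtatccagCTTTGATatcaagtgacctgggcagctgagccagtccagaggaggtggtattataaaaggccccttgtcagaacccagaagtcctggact
Rhbg, chr2:176015150-176015399, minus strand: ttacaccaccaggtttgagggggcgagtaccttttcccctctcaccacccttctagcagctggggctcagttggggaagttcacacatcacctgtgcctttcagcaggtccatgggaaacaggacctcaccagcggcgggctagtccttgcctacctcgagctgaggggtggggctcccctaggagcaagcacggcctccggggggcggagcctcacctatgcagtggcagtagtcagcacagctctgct
The Glul window held 1 match, starting 230 bases before the start, and a second RefSeq start of Glul held 0. Axin2 held 2 matches, at 232 and 132 bases before the start, Cyp2e1 1 at 153 and Cyp1a2 1 at 90, while Rhbg held 0 although it had the largest difference of the list. Over all 33469 promoter windows, 2537 (7.58%) held a match. Of 22 WNT targets and rule markers, 16 were in the table and 8 of these held a match in at least 1 window. This count is of genes and the share above is of windows, so they cannot be set side by side. Nkd1, Sp5 and Slc1a2 were among the 8 and could not be tested in members. A match is a run of letters and not evidence of binding.

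P450 enzymes and xenobiotic receptors were higher in members for 20 of 25 tested and lower for 2. Besides Cyp1a2 and Cyp2e1, Ahr, the receptor for dioxin-like compounds, stood at 479, 392, 383 and 226 CPM against 326, 172, 186 and 102 CPM (0.98 ± 0.13, adjusted p = 6.34e-07). Cyp2c22 stood at 2004, 1513, 1285 and 730 CPM against 1190, 668, 731 and 427 CPM (0.88 ± 0.13). Nr1i2, the pregnane X receptor, went the other way, at 178, 237, 122 and 180 CPM against 424, 373, 202 and 260 CPM (-0.78 ± 0.13, adjusted p = 2.93e-05). The retinoid-oxidizing Cyp2c7 was the most strongly lower P450, at 147, 97.0, 264 and 87.3 CPM against 690, 744, 505 and 457 CPM (-2.08 ± 0.36). Fewer genes of the list were called elsewhere. Against periportal-free nuclei 9 of 23 were higher and 2 lower, beside 15.4 and 14.2% of all genes. Without Sult1e1 10 of 25 were higher and 1 lower, beside 2.84 and 2.91% of all genes. Without the TMM factors 8 were higher and 3 lower, beside 7.33 and 28.9% of all genes on that scale. Against periportal-free nuclei Cyp2c22 was not called (0.37, adjusted p = 0.076) and Nr1i2 was higher (2.05). P450 genes of 1 subfamily are near-identical and reads may be split between them.

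Phase II enzymes, which conjugate drugs and hormones, were higher for 9 of 20 and lower for 0. Gstm2, a glutathione transferase, stood at 136, 155, 108 and 91.0 CPM against 65.2, 70.6, 67.2 and 50.01 CPM (0.93 ± 0.12, adjusted p = 4.97e-07). Ugt1a5, a glucuronosyltransferase, stood at 2700, 2742, 3386 and 1230 CPM against 1014, 1124, 1880 and 709 CPM (1.09 ± 0.14). Both were higher in members of 4 of 4 rats. Against periportal-free nuclei 6 of 19 were higher and 1 lower, beside 15.4 and 14.2% of all genes. Neither Gstm2 (0.25, adjusted p = 0.36) nor Ugt1a5 (0.20, adjusted p = 0.38) was called there. Without the TMM factors 5 of 20 were higher and 4 lower, beside 7.33 and 28.9% of all genes.

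Bile acid genes were higher for 9 of 23 and lower for 1. Cyp8b1, which sets the share of cholic acid, stood at 344, 332, 868 and 253 CPM against 145, 156, 499 and 162 CPM (0.94 ± 0.13, adjusted p = 1.68e-06). Slc27a5, which joins bile acids to coenzyme A, stood at 904, 881, 1135 and 1055 CPM against 483, 442, 720 and 595 CPM (0.84 ± 0.13). The uptake carriers Slco1a4 (1.07 ± 0.14) and Slc10a1 (0.72 ± 0.13) and the racemase Amacr (0.76 ± 0.14) were higher too. Nr0b2, a repressor of bile acid synthesis, was the lower member. Without the TMM factors 6 of 23 were higher and 6 lower, beside the same shares of all genes. Against periportal-free nuclei 15 of 23 were higher and 2 lower, beside 15.4 and 14.2% of all genes. Slc27a5 (1.03) and Amacr were higher there too, Cyp8b1 (-0.29, adjusted p = 0.21) and Slco1a4 (-0.07, adjusted p = 0.77) were not called, and Slc10a1 (-0.47, adjusted p = 0.019) and Nr0b2 (1.17) turned.

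Urea cycle and glutamine genes divided, 4 higher and 6 lower of 15. Gls2 stood at 115, 181, 121 and 94.8 CPM against 419, 506, 290 and 283 CPM (-1.53 ± 0.13, adjusted p = 1.12e-10). Arg1, the arginase that releases urea, stood at 691, 651, 615 and 282 CPM against 1540, 1150, 1003 and 525 CPM (-0.89 ± 0.13). The amino acid carriers Slc7a2 (-1.63 ± 0.18) and Slc38a4 (-0.72 ± 0.14) were lower, and Rhbg, Otc, Slc1a4 and Aldh4a1 higher. Against periportal-free nuclei 8 of 15 were higher and 1 lower, beside 15.4 and 14.2% of all genes. Arg1 was reversed there (0.52, adjusted p = 0.031) and Gls2 stood at -0.38 (adjusted p = 0.11). Slc38a4 stayed lower (-0.76), Slc7a2 turned (0.64), and Otc and Aldh4a1 were not called.

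Other amino acid catabolism was lower for 12 of 28 and higher for 4. The glycine cleavage enzyme Gldc stood at 52.6, 38.0, 45.6 and 32.4 CPM against 137, 90.9, 97.6 and 91.7 CPM (-1.29 ± 0.13, adjusted p = 3.93e-09). Got1, the cytosolic aspartate aminotransferase, stood at 851, 589, 235 and 203 CPM against 3366, 1183, 502 and 440 CPM (-1.30 ± 0.15). The histidine-degrading Uroc1 (-0.94 ± 0.13) and Ftcd (-0.84 ± 0.13) and Sdsl (-1.53 ± 0.19) were lower. The list turned to 14 higher and 0 lower of 28 against periportal-free nuclei, beside 15.4 and 14.2% of all genes. There Gldc (-0.38, adjusted p = 0.21) and Uroc1 (-0.14, adjusted p = 0.60) were not called, nor were Ftcd and Sdsl, and Got1 turned (1.79). The list stayed 11 lower and 4 higher without Sult1e1, beside 2.91 and 2.84% of all genes.

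Gluconeogenesis and glycogen genes were lower for 4 of 13 and higher for 2, beside 10.1 and 16.1% of all genes. Pck1 stood at 5181, 5859, 4340 and 5561 CPM against 9007, 8119, 6227 and 7444 CPM (-0.55 ± 0.14, adjusted p = 0.00343). The glucagon receptor Gcgr (-0.52 ± 0.13) and Irs2 (-0.66 ± 0.15), an insulin receptor substrate, were lower, while the glycogen branching enzyme Gbe1 (0.45 ± 0.12) was among the higher. Without the TMM factors 0 were called higher and 8 lower, beside 7.33 and 28.9% of all genes on that scale. Against periportal-free nuclei 9 of 13 were higher and 1 lower, beside 15.4 and 14.2% of all genes. Pck1 was among the higher (1.53, adjusted p = 2.04e-08), as in the plot of levels by marker sum. Gcgr (1.23) and Irs2 (1.81) were higher there too, while Gbe1 was not called.

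Of 24 lipid synthesis genes 4 were higher and 5 lower, beside 16.1 and 10.1% of all genes, and their median log2 difference of -0.03 was that over all genes. The desaturase Scd stood at 436, 560, 380 and 430 CPM against 143, 195, 184 and 171 CPM (1.37 ± 0.13, adjusted p = 6.43e-10), and Cyp51, of cholesterol synthesis, was higher as well (0.84 ± 0.13). Fasn, which makes palmitate, stood at 63.1, 124, 206 and 146 CPM against 152, 226, 234 and 217 CPM (-0.66 ± 0.14). Scd was not called against periportal-free nuclei (-0.02, adjusted p = 0.94) or without Sult1e1 (0.28, adjusted p = 0.14). Against periportal-free nuclei Fasn was not called and Cyp51 turned (-0.44). Of 20 fatty acid oxidation genes 2 were higher and 3 lower, a share near that over all genes, with Cyp4a3 the lowest (-1.66 ± 0.18), which was not called against periportal-free nuclei.

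Of 23 hepatocyte transcription factors, 8 were lower in members and 2 higher. Prox1, a regulator of hepatocyte fate, stood at 130, 214, 159 and 152 CPM against 253, 351, 267 and 194 CPM (-0.68 ± 0.13, adjusted p = 0.000108). The estrogen receptor Esr1 (-1.08 ± 0.21) was lower, from a low level. This direction followed the comparison nuclei. Against those without a periportal UMI 11 of 20 were higher and 0 lower, beside 15.4 and 14.2% of all genes. Prox1 was among the higher (1.38) and Esr1 was not called.

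Secreted plasma proteins were higher for 22 of 25 and lower for 0. Apoa2 stood at 6342, 4246, 8509 and 4508 CPM against 1978, 1450, 4618 and 2477 CPM (1.24 ± 0.15, adjusted p = 2.04e-07), and Gc, the vitamin D carrier, at 8227, 6385, 8143 and 4257 CPM against 3316, 2860, 5081 and 2599 CPM (0.97 ± 0.15). The list did not keep these calls. With Sult1e1 left out 1 of 25 was called higher, beside 2.84% of all genes. Against periportal-free nuclei 0 were higher and 6 lower, beside 15.4 and 14.2% of all genes, Gc among the lower (-0.43, adjusted p = 0.031). Apoa2 was higher without Sult1e1 (0.54, adjusted p = 0.00068) and not called against periportal-free nuclei (0.10, adjusted p = 0.65).

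Markers of other cell types differed little between members and the full set of other hepatocyte nuclei. No marker of sinusoidal endothelium (10 tested), central vein endothelium (2 tested) or stellate cells (7 tested) was called by edgeR or by DESeq2, and 1 of these 19 genes had an unadjusted p under 0.05. Among 8 Kupffer and myeloid markers Lyz2 was higher (9.35, 19.6, 12.0 and 42.4 CPM against 2.59, 6.65, 10.8 and 10.5 CPM). Epcam was higher of 2 cholangiocyte markers and the immunoglobulin gene Ighm lower of 2 lymphocyte markers. With nuclei thinned, 5 of 9 endothelial and 4 of 8 Kupffer markers were lower in members. Against periportal-free nuclei Lyz2 and Epcam were not called.

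Among called genes with a mean of at least 20 CPM and 1 direction in every rat, the 10 largest increases were in Cyp1a2, described above, Pcp4l1, Slc13a3 of the pericentral check list and 7 further genes. Pcp4l1 stood at 347, 83.0, 37.4 and 26.2 CPM in members and 41.1, 8.80, 13.2 and 7.31 CPM in the others (2.52 ± 0.32, adjusted p = 0.00227). Slc13a3, a dicarboxylate carrier, stood at 109, 115, 124 and 86.7 CPM against 7.76, 12.9, 43.7 and 24.8 CPM (2.32 ± 0.47, adjusted p = 0.0432). LOC259244 stood at 6837, 4886, 3497 and 2818 CPM against 1576, 1027, 1713 and 1127 CPM (1.68 ± 0.17). Mup4 (ENSRNOG00000050499), a pheromone-binding urinary protein, stood at 1793, 1355, 945 and 1079 CPM against 347, 298, 417 and 293 CPM (1.90 ± 0.15). Cela1 (1.65 ± 0.17), an elastase, Xpnpep2 (1.63 ± 0.14), an aminopeptidase, LOC298111 (1.82 ± 0.36) and the unnamed loci AABR07048427.1 (2.03 ± 0.18) and AABR07048436.1 (1.94 ± 0.36) completed the 10. Urinary protein genes are near-copies of each other, and reads may be split between them.

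The largest decrease among such genes was in Gria3, a glutamate receptor subunit, at 0, 1.27, 2.99 and 1.25 CPM in members and 37.3, 42.0, 47.3 and 56.1 CPM in the others (-4.70 ± 0.27, adjusted p = 4.49e-15). Mt2A, a metallothionein, stood at 192, 72.9, 24.3 and 42.4 CPM against 1045, 274, 85.7 and 194 CPM (-2.11 ± 0.14). The sterol exporters Abcg5 (-2.07 ± 0.17) and Abcg8 (-1.90 ± 0.20), which work as a pair, fell together. Wsb1 stood at 47.9, 79.9, 53.1 and 69.8 CPM against 266, 286, 228 and 212 CPM (-1.97 ± 0.14), and the leptin receptor gene Lepr at 0, 4.44, 15.7 and 15.0 CPM against 31.6, 28.1, 52.3 and 48.8 CPM (-2.05 ± 0.22). Cyp2c7, Rab30 (-1.99 ± 0.18), AC128848.1 (-2.14 ± 0.20) and RGD1565117 (-1.84 ± 0.19) were the others. Against periportal-free nuclei Mt2A (-0.26, adjusted p = 0.36), Wsb1 (-0.20, adjusted p = 0.50), Lepr (-0.03, adjusted p = 0.97), Rab30 (-0.23, adjusted p = 0.70), Abcg5 (-0.72, adjusted p = 0.080) and Xpnpep2 (0.41, adjusted p = 0.097) were not called. Gria3, AC128848.1 and RGD1565117 did not pass the filter on low counts there and have no value.

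**Figure D3:**
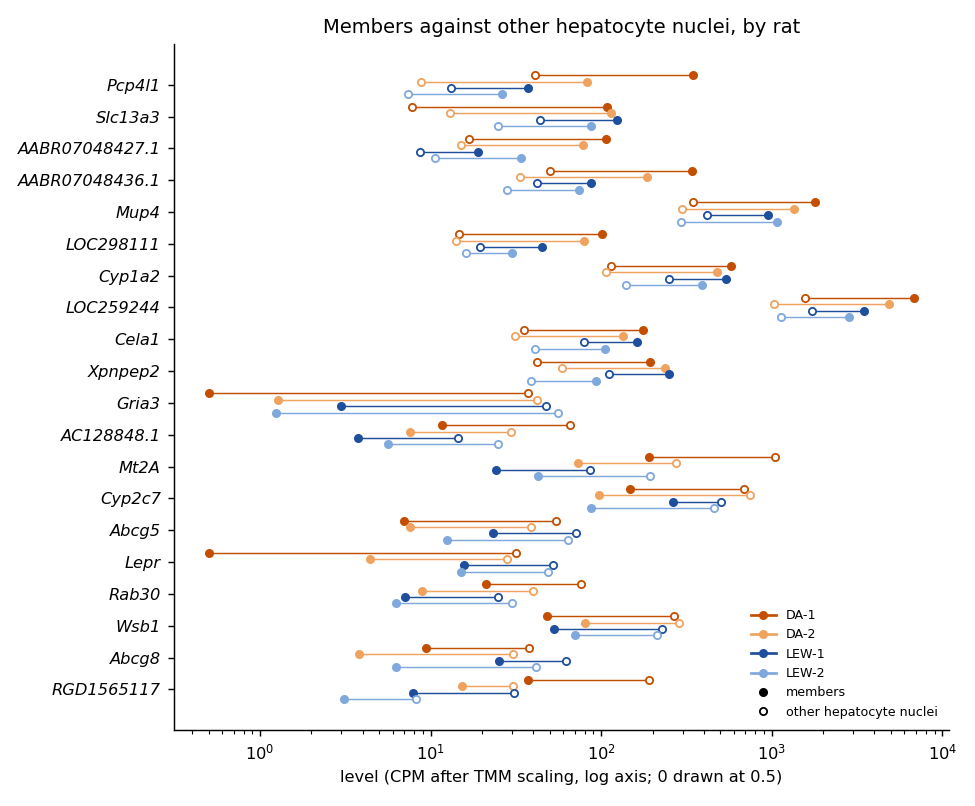
Level in CPM after TMM scaling (horizontal log axis, 0 drawn at 0.5) of the 10 genes with the largest increase and the 10 with the largest decrease, in members (filled) and other hepatocyte nuclei (open) of each rat (colour). Filled points lie to the right of open ones in all 4 rats for the upper 10 genes, for example 578 against 114 CPM for Cyp1a2 in DA-1, and to the left for the lower 10.

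Genes whose call did not turn on these choices were counted last, by a criterion set after the values were seen. Of 7781 genes tested in all 5 settings (the main comparison, periportal-free nuclei, no Sult1e1, thinned nuclei and no TMM factors), 64 were called higher and 28 lower in each. The 64 included Axin2, Rhbg, Rgn, Cyp1a2, Cyp2e1, Ahr, Pcp4l1, Cela1 and Gulo, a vitamin C synthesis enzyme that stood at 1073, 1115, 1239 and 1014 CPM against 305, 305, 673 and 505 CPM. They also included Csad, of taurine synthesis, at 1253, 704, 656 and 550 CPM against 722, 262, 398 and 268 CPM. Fmo1, a flavin monooxygenase, stood at 248, 227, 178 and 149 CPM against 103, 66.3, 72.0 and 58.2 CPM. Bile acid genes among them were Slc27a5, Amacr and Hsd3b7.

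The 28 lower genes included Slc38a4, Abcg8, Sfxn1, a mitochondrial serine carrier at 67.8, 113, 101 and 63.0 CPM against 159, 166, 146 and 126 CPM, and Crot, a peroxisomal carnitine transferase at 24.6, 14.6, 24.7 and 14.3 CPM against 121, 88.6, 50.4 and 33.2 CPM. B4galt5, a galactosyltransferase, stood at 10.5, 6.34, 9.34 and 4.99 CPM against 33.4, 28.0, 27.7 and 13.9 CPM. Members were below the others in every rat for Sfxn1, Crot and B4galt5. The 28 also held genes known from other cell types: Tyrobp, an adaptor of myeloid receptors, at 18.7, 19.6, 16.8 and 13.1 CPM against 24.3, 24.6, 27.3 and 21.6 CPM, the chemokine Ccl5 (-0.64 ± 0.23), the heme oxygenase Hmox1 (-0.50 ± 0.17), and Ltbp4 (-1.66 ± 0.18) and Ccn2 (-0.56 ± 0.21), of the extracellular matrix. The part of RNA from other cells in this set was not tested.

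How members differed among themselves was described by splitting them on Glul, whose product marks the innermost hepatocytes around the central vein. The rule itself used Glul, so this split is a description and supports nothing about the label. A member without a Glul UMI had to reach its marker sum from Cyp7a1, Oat or Sult1e1, so that a gene that goes with these markers is set lower in members with a Glul UMI by the rule. Members with a Glul UMI numbered 98, 127, 324 and 220. They were deeper than the members without one, with medians of 1821, 1979, 1615.5 and 2037.5 UMIs against 1369, 1452, 1376.5 and 1571. More of them held over 1 UMI of other cell types' markers, 19.4, 22.0, 16.05 and 25.9% against 14.5, 12.3, 9.57 and 20.8%. A nucleus without a Glul UMI may still express the gene. One with a Glul UMI may not express it. Thinned Glul was more common in nuclei rich in markers of other cell types, in each rat. Whether those nuclei express Glul was not tested.

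Of 6353 genes tested, 1247 (19.6%) were called, 542 higher (8.53%) and 705 lower (11.1%) in members with a Glul UMI (edgeR, rat as a block). Without the TMM factors the split was 1016 higher (16%) and 354 lower (5.57%), with the median of all genes moved from 0.03 to 0.19. With thinned nuclei 144 of 4088 genes were called, 70 higher (1.71%) and 74 lower (1.81%), and with Sult1e1 left out 112 of 5424, 49 higher (0.903%) and 63 lower (1.16%). Of the 20 largest changes, 13 were still called with Sult1e1 left out, 6 were not and the other had no value. Without LEW-1 the count was 588.

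Rhbg and Pcp4l1 rose most among genes with a mean of at least 20 CPM. Rhbg stood at 102, 81.5, 54.3 and 57.7 CPM with a Glul UMI and 8.90, 16.3, 9.20 and 0.990 CPM without (2.94 ± 0.27). Pcp4l1 stood at 901, 235, 93.4 and 45.8 CPM against 179.5, 45.9, 19.7 and 14.8 CPM (2.24 ± 0.16). Both separated the classes in every rat, and Pcp4l1 differed more between rats than between classes. Adam11, of a family of membrane proteins with a disintegrin domain, stood at 394, 316, 205 and 372 CPM against 117, 121, 60.9 and 107 CPM (1.67 ± 0.13), and Axin2 at 35.8, 101, 100 and 54.3 CPM against 10.4, 33.4, 46.9 and 28.7 CPM (1.22 ± 0.20). Of 9 WNT targets 4 rose and 1, Ccnd1, fell, while Cyp2e1, Cyp1a2, Rgn and Lect2 lay between -0.20 and 0.15 and were not called. Jcad (1.51 ± 0.27), the cholesterol ester hydrolase Nceh1 (1.25 ± 0.20), Csrp2 (1.24 ± 0.27) and AABR07058907.2 (1.26 ± 0.29) rose as well.

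All 5 Kupffer and myeloid markers tested were also higher with a Glul UMI. Cd5l, a secreted macrophage protein, stood at 46.1, 153, 62.8 and 83.2 CPM against 32.6, 43.5, 32.8 and 40.6 CPM (1.18 ± 0.19). The others were Cd163, Marco, Clec4f and Cd74, by 0.54 to 0.82 on the log2 scale. None of them passed the filter on low counts once nuclei with more than 1 UMI of other cell types' markers were left out, a selection that uses these genes. The WNT count was then again 4 higher and 1 lower of 9, and 1177 genes were called in all.

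Periportal genes and plasma proteins were lower with a Glul UMI. Of 13 periportal check genes 11 fell, among them Uroc1, at 56.3, 61.9, 50.9 and 52.6 CPM against 131, 184, 108 and 130 CPM (-1.29 ± 0.18), and Ass1, of the urea cycle, at 932, 430, 672 and 475 CPM against 1580, 1075, 1028 and 786 CPM (-0.84 ± 0.11). Slc38a4, a sodium-coupled amino acid carrier, stood at 312, 336, 621 and 372 CPM against 1056, 938, 1100 and 738 CPM (-1.20 ± 0.11). Scd stood at 184, 166, 205 and 261 CPM against 500, 647, 393 and 529 CPM (-1.27 ± 0.13), the opposite of its direction in all members. In all 4 rats each of these genes was lower with a Glul UMI.

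Of 25 plasma protein genes 23 fell, 7 with thinned nuclei and 5 with Sult1e1 left out. Fgg, the fibrinogen gamma chain, stood at 1736, 1584, 2704 and 2079 CPM against 3877, 2819, 4573 and 3216 CPM (-0.84 ± 0.10). Of the periportal check genes 6 of 13 stayed lower under either alternative. Ptger3 (-1.59 ± 0.31), Wfdc2 (-1.33 ± 0.19), Sfxn1 (-1.27 ± 0.20), Mt2A (-1.24 ± 0.22), Brcc3 (-1.15 ± 0.25), Elovl2 (-1.09 ± 0.24) and Aadac (-1.03 ± 0.23) were the other large decreases.

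The other lists stand beside 8.53% higher and 11.1% lower over all genes. The P450 list had 3 genes higher and 5 lower of 21, with Ahr (0.79 ± 0.11) and Nr1i3 (0.66 ± 0.11), the constitutive androstane receptor, higher and Cyp3a18 (-0.81 ± 0.11) lower. In the bile acid list 4 of 22 were higher and 4 lower, Cyp27a1 (0.55 ± 0.11), which oxidizes the sterol side chain, among the higher and Cyp8b1 (-0.90 ± 0.13) among the lower. Without the TMM factors these lists had 5 higher and 3 lower, and 7 higher and 3 lower. In other amino acid catabolism 3 of 27 were higher and 7 lower, and in lipogenesis 1 of 22 was higher and 5 lower. Phase II enzymes had 2 higher and 3 lower of 19, shares near those over all genes, fatty acid oxidation 0 and 4 of 18, gluconeogenesis 2 and 2 of 12, and transcription factors 4 and 0 of 18.

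**Figure D4:**
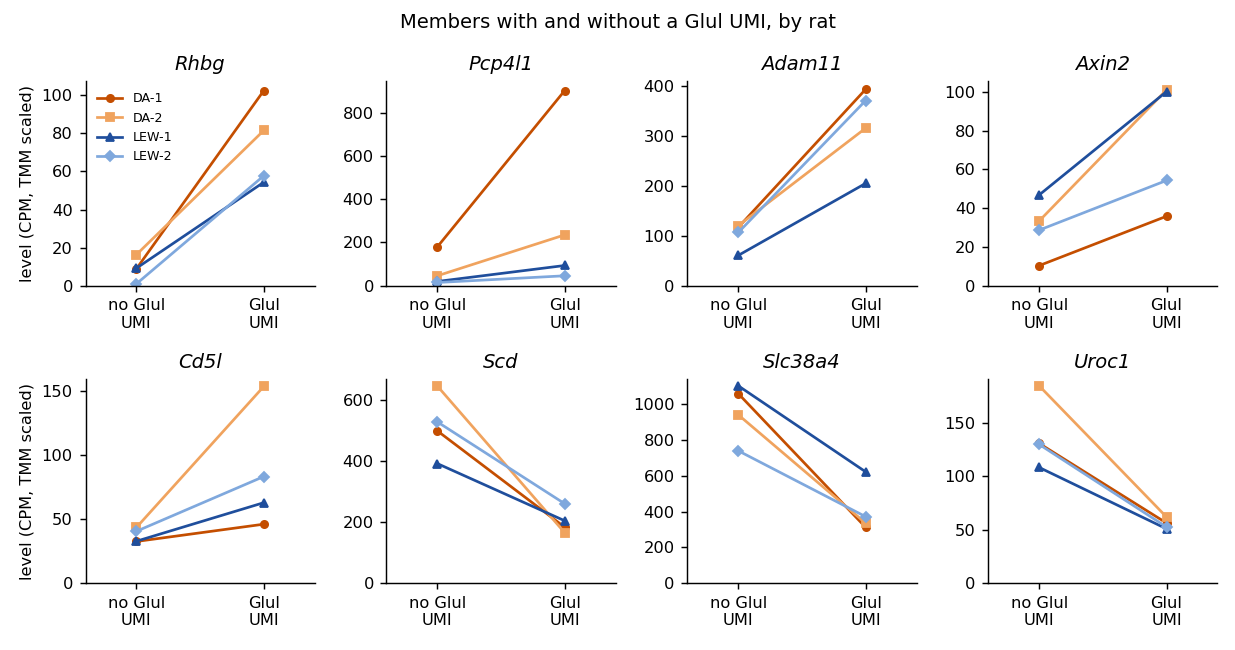
Level of 8 genes in CPM after TMM scaling (vertical axes, starting at 0) in members without and with a Glul UMI, 1 line per rat. Rhbg, Pcp4l1, Adam11, Axin2 and Cd5l are higher with a Glul UMI in all 4 rats and Scd, Slc38a4 and Uroc1 lower, for example 102 against 8.90 CPM for Rhbg in DA-1.

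LEW members were then compared with DA members, 2 rats against 2. Of 8541 genes tested, 83 (0.972%) passed, 36 higher (0.421%) and 47 lower (0.55%) in LEW (edgeR, adjusted p of 0.05), and the strains did not overlap for any of the 83, as for 32.3% of all genes tested. The count depended on single rats: it was 46 without DA-1, 286 without LEW-1 and 256 without LEW-2. Without nuclei of other cell types it was 90. In the other hepatocyte nuclei the same comparison called 121 of 11198 genes (1.08%), 57 higher and 64 lower in LEW. The p-values measure only the spread between these 4 rats.

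The 11 functional lists held 2 calls between the strains among 223 genes tested, each counted once per list (0.897%), near the 0.972% of all genes. By edgeR 0 were called of 9 WNT targets, 24 P450 and receptor genes, 23 bile acid genes, 20 phase II genes and 25 plasma proteins, with 0, 3, 2, 5 and 0 at an unadjusted p under 0.05, as had 580 of all 8541 genes (6.79%). Of 13 gluconeogenesis genes 5 had such a p, and of 15 urea cycle and glutamine genes 3. DESeq2 called 1 bile acid gene and 0 in the other 6 of these lists. The smallest unadjusted p in the WNT list was 0.065, for Ccnd1. The nearest in the P450 list was Cyp2b2 (edgeR adjusted p = 0.17) and in the bile acid list Baat, which conjugates bile acids (edgeR adjusted p = 0.14). With 2 rats a strain these lists are not shown to be equal. Fatty acid oxidation had 1 call, Cyp4a2, and amino acid catabolism 1, Aass.

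Of the 20 genes named for the largest differences, at a mean of at least 20 CPM, 4 were at or near 0 in 1 strain. RT1-N2, a class I gene of the rat major histocompatibility complex, had 0 and 0 UMIs in DA members and 167 and 105 in LEW members, at least 51.2-fold higher in LEW against a floor of 3 UMIs over the strain. RGD1564855 had 0 and 0 against 68 and 103 UMIs, at least 32.2-fold higher. Ooep, an oocyte-expressed gene, went the other way with 59 and 119 UMIs in DA and 0 and 0 in LEW, at least 105-fold lower in LEW. Mlc1, a membrane protein gene, had 223 and 318 UMIs in DA and 2 and 1 in LEW, a ratio of 319 with a counting interval of 109 to 1552. RT1-A2, another class I gene, stood at 472 and 399 CPM in DA and 60.1 and 40.4 CPM in LEW (-3.10 ± 0.47, adjusted p = 0.000309). Strains differ in sequence at this complex, and its genes are near-copies, so that the values of RT1 genes are uncertain.

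Cyp4a2, an omega-hydroxylase of fatty acids, stood at 2691 and 1959 CPM in DA and 144 and 39.3 CPM in LEW (-4.66 ± 0.60, adjusted p = 3.59e-05). Acsm3, a medium-chain acyl-CoA synthetase, was lower in LEW (-4.48 ± 0.47) while its relative Acsm5 was higher (2.08 ± 0.41). The esterase Ces2e (-3.67 ± 0.42), the citrate carrier Slc13a2 (-3.54 ± 0.50), Aass (-3.48 ± 0.67), of lysine degradation, and Noct (-3.04 ± 0.57), a clock-controlled gene, were lower. Zbtb16, a glucocorticoid-responsive repressor, stood at 80.4 and 44.2 CPM in DA and 4.75 and 8.66 CPM in LEW (-3.24 ± 0.43).

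Higher in LEW were Slc35c2, a sugar-nucleotide carrier family gene at 17.4 and 19.5 against 252 and 309 CPM (3.91 ± 0.47, adjusted p = 1.15e-05), and Bcl6, a repressor of lipid genes, at 14.1 and 8.84 against 44.5 and 58.3 CPM (2.20 ± 0.40). Slc16a11 (2.32 ± 0.40), a monocarboxylate carrier, Tmem144 (2.14 ± 0.40), Gimd1 (2.53 ± 0.51), Ccdc77 (2.52 ± 0.42) and LOC103695118 (2.36 ± 0.43) were higher. The same strain direction was present in the other hepatocyte nuclei for each of the 20: Slc35c2 differed there by 4.11, Cyp4a2 by -3.97 and Zbtb16 by -3.18. For none of the 20 did the strain effect itself differ between members and others past the threshold, with Ces2e the nearest (difference -1.86 ± 0.38, edgeR adjusted p = 0.068). For genes at or near 0 in 1 strain this test could not decide. The difference could not be estimated for RT1-N2 (SE 2426), and it had a large error for RGD1564855 (4.12 ± 2.52), Ooep (-3.07 ± 2.00) and Mlc1 (0.39 ± 1.04). The 20 are therefore not shown to have equal strain effects in both classes.

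The strain effect did differ between members and other hepatocyte nuclei for 11 of 11022 genes (0.0998%; edgeR interaction test), 0 more positive and 11 more negative in members. By edgeR 1071 genes had an unadjusted p under 0.05. DESeq2 called 8, also all negative. The 11 were Slc13a3, AABR07048436.1, LOC259244, Gsta3, LOC298111, Pcp4l1, Gulo, AABR07048474.1, Cyp1a2, Ca3 and Cela1. Except for Gsta3 in LEW-2, each was higher in members than in the others of every rat, and by a larger factor in the DA rats. The test picked the genes on these same sums, so the larger factor in DA is no further support.

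Slc13a3 was 11.5 and 7.17 times as high in members as in the others in DA and 2.40 and 3.16 times in LEW. Cyp1a2 was 4.14 and 3.65 times as high in DA and 1.82 and 2.55 times in LEW, and Gulo 2.88 and 2.95 against 1.55 and 1.82 times. These ratios are of plain CPM. In members themselves the strains were close, at 578 and 480 CPM in DA and 537 and 390 CPM in LEW for Cyp1a2 and at 1073 and 1115 against 1239 and 1014 CPM for Gulo. In the other hepatocyte nuclei Cyp1a2 stood at 114 and 106 against 248 and 139 CPM. For 4 of the 11, Slc13a3, Cyp1a2, Gulo and Cela1, the strains lay further apart in the others, and for the other 7 they lay further apart in members. The LEW minus DA difference was -1.32 in members and 0.94 in the others for Gsta3, -1.72 and -0.23 for AABR07048436.1, and -1.28 and 0.33 for LOC298111. Among the 11, Pcp4l1 alone also passed as a strain difference in members (-2.75 ± 0.56, adjusted p = 0.025).

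The count of 11 was not stable. It was 3 without the TMM factors, 8 without nuclei of other cell types, 24 with Sult1e1 left out (4 of the 11 among them), 45 with thinned nuclei and 193 with a marker sum of at least 3, and 28, 289, 9 and 6 without DA-1, DA-2, LEW-1 and LEW-2. Of the 11 named genes, 10, 11, 3 and 4 were among these last 4 sets, 3 were called without the TMM factors, 7 without nuclei of other cell types and 9 with thinned nuclei. Nor was the direction: with Sult1e1 left out 18 were more positive and 6 more negative in members, and without DA-2 114 and 175. Sult1e1 alone made 44.9 and 32.6% of DA members and 26.98 and 20.0% of LEW members, so that members differed in make-up between the strains. Its part in the difference was not tested.

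**Figure D5:**
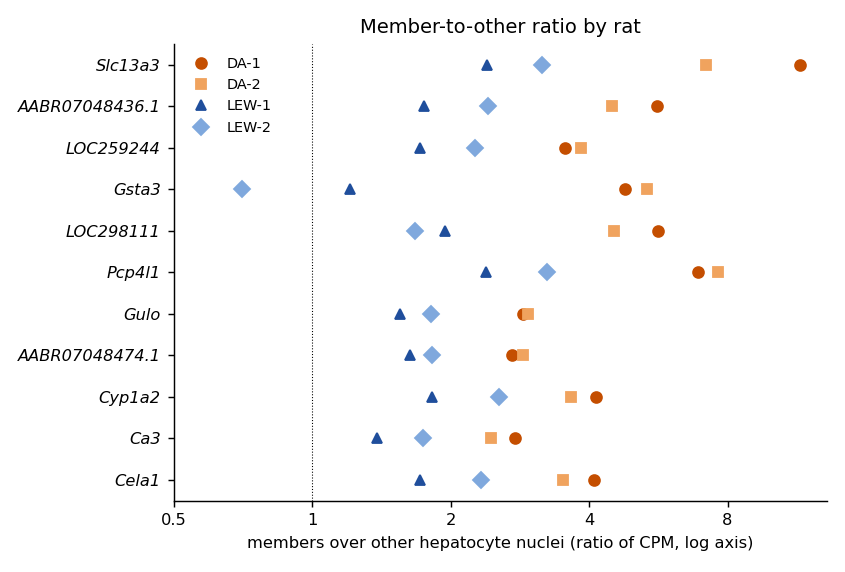
Ratio of CPM in members to CPM in other hepatocyte nuclei (horizontal log axis) for the 11 genes whose strain effect differed between these classes, 1 point per rat. The genes were picked by the test on these same sums. Both DA rats lie to the right of both LEW rats for every gene, for example 11.5 and 7.17 against 2.40 and 3.16 for Slc13a3. The dotted line marks equal levels.

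The series also held 2 Visium sections, A and B, of Wistar rat liver, in which RNA is counted over spots that each cover several cells. Spots with at least 1000 UMIs were ranked by the summed CPM of Cyp7a1, Glul, Oat and Sult1e1, and the top 20% (486 and 476 spots) were set beside the rest (1943 and 1900). Each section gives 1 value, so there is no test, and spots differ from nuclei in strain, in RNA fraction and in holding mixed cells. Ratios are log2 after adding 5 CPM.

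Genes called higher in members lay close to all genes in these spots, with medians of 0.02 and 0.03 against 0.01 and 0.02 over all genes tested. Of them, 762 of 1320 (57.7%) and 812 of 1319 (61.6%) lay above 0, beside 52.9 and 56.6% of all genes tested. Genes called lower in members had medians of -0.06 and -0.07, with 77 of 234 and 85 of 245 above 0.

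The pericentral genes given next lay further above 0. They are examples, and their lists were not tallied over the spots. Cyp2e1 stood at 2119 against 1408 CPM in section A and 2429 against 1495 CPM in section B (log2 ratios 0.59 and 0.70). Cyp1a2 (0.55 and 0.70), Gulo (0.58 and 0.72), Rgn (0.53 and 0.63), Ahr (0.67 and 0.91) and Lect2 (0.66 and 0.69) were higher by similar amounts. Mup4 (ENSRNOG00000050499) stood at 692 against 279 CPM and 769 against 331 CPM (1.30 and 1.20), LOC259244 at 0.97 and 1.08 and Cela1 at 0.82 and 0.99 on the log2 scale. Scd was higher, by 0.75 and 0.91, as in the full set of members.

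Of the 14 periportal check genes, 13 lay below 0 in each section, and Pigr was above (0.15 and 0.096). Asl, Ctsc and Cyp2f4 lay between -0.14 and -0.07. Gls2 stood at 178 against 274 CPM and 179 against 285 CPM (-0.61 and -0.65), and Hsd17b13, a lipid droplet protein, at 171 against 327 and 153 against 333 CPM (-0.92 and -1.10). Pck1 (-0.51 and -0.58) and Arg1 (-0.32 and -0.39) were lower, in the direction of the first comparison and not of the one against periportal-free nuclei. Slc38a4 (-0.51 and -0.53) was lower as it was in members. Of the Kupffer and myeloid markers that were higher in members with a Glul UMI, Cd5l (-0.74 and -0.72), Marco (-1.05 and -1.35) and Clec4f (-0.52 and -0.46) were lower in marker-rich spots, as was Cd163 in section B (-0.54), and Cd74 was higher (0.86 and 1.19). Vsig4 (-0.60 and -0.78) and Cd68 (-0.49 and -0.23) were lower too. The mesenchymal markers Col3a1 (0.57 and 0.58) and Ecm1 (0.49 and 0.67) were higher by about as much as the pericentral genes, and Lrat (0.14 and 0.41) and the endothelial Kdr (0.21 and 0.15), Lyve1 (0.21 and 0.39) and Fcgr2b (0.07 and 0.17) by less. Their part in these ratios was not tested. Of the plasma proteins called higher in members, 10 of 21 lay above 0 in section A and 8 of 21 in section B, no larger a share than over all genes. Apoa2 was the highest (0.40 and 0.47) and the acute-phase protein gene Orm1 the lowest (-0.52 and -0.69), and the fibrinogen genes Fga (-0.22 and -0.27) and Fgg (-0.16 and -0.19) were below 0.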

How the data were processed

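Single-nucleus and Visium libraries were aligned by the authors with Cell Ranger 3.1.0 and Space Ranger 1.1.0, per the submitters' processing notes, to a custom rat reference. The deposited files hold whole UMI counts for each gene and barcode, not normalized, with 32883 genes per matrix and 8039397 to 15186970 UMIs per nuclear library. Intronic and exonic counting was not given in the sources used here.

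Counts were summed per rat and class without the 12 genes of the rule and gate (scanpy 1.11.5, R 4.3.3). Sums were tested with edgeR 4.0.16 (quasi-likelihood, robust, TMM, filterByExpr, Benjamini-Hochberg adjustment), with the rat as a block between classes and without a block between strains, and checked with DESeq2 1.42.0. Fits were tested on simulated data first. Shares of members were compared by an exact permutation test over rats. Nothing in the labels says that equal replicate numbers pair rats. Doublets were kept, and leaving out the 6% of nuclei with the highest Scrublet scores was an alternative.

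The members and gene lists were chosen with earlier results of these data known. Genes named are up to 5 per list by smallest p, and the 10 largest changes on each side among called genes with a mean of at least 20 CPM whose direction was the same in every rat or whose strains did not overlap. For the test of the strain effects all 11 calls are named. Cells of the other samples were not used here. Some genes that the naming rule selects are not reported here.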

Additional observations from a re-analysis of the deposited data

Results flagged for a closer look

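For 11 genes the difference between LEW and DA was not the same in pericentral members as in the other hepatocyte nuclei (edgeR quasi-likelihood interaction test on UMI sums of 2 rats per strain, Benjamini-Hochberg adjusted p from 0.0052 to 0.048). The strain effect in members less that in the others, on the log2 scale, was -1.78 for Slc13a3, a dicarboxylate carrier, -2.29 for Gsta3, a glutathione transferase, and -1.51 for Pcp4l1. It was -0.97 for Cyp1a2, -0.90 for Gulo, -0.85 for Ca3, a carbonic anhydrase, and -1.05 for Cela1. It was -1.01 for LOC259244, -1.54 for LOC298111, -1.42 for AABR07048436.1 and -0.80 for AABR07048474.1. In both DA rats the ratio of members to others was larger than in both LEW rats for each of the 11. The test picked the genes on these same sums, so this order is no further support, and its share over all genes was not counted. Of the 11, 3 were called without the TMM factors, 4 with Sult1e1 left out and 9 with thinned nuclei. With Sult1e1 left out 18 calls were more positive in members and 6 more negative.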

How the results depend on the processing

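For members against other hepatocyte nuclei, 2695 genes were called. The count was 1643 with DESeq2, 1643 to 2752 with 1 rat left out (1643 without DA-2), 1431 with stricter limits on nuclei (a floor of 1500 UMIs together with a mitochondrial ceiling of 5%), 1712 with a marker sum of at least 3, 1232 in thinned nuclei and 573 without Sult1e1. Without the rat as a block, so that the 2 sums of a rat were not paired, it was 24 by edgeR, with 1406 genes at an unadjusted p under 0.05. For LEW against DA members, 83 were called, against 161 without a filter on low counts, 51 without the TMM factors, 46 to 286 with 1 rat left out and 160 with a block on replicate number. For the strain effects in members against others, 11 were called, against 57 without the filter, 3 without the TMM factors, 6 to 289 with 1 rat left out (289 without DA-2), 27 with both stricter limits on nuclei, 193 with a marker sum of at least 3, 45 in thinned nuclei and 24 without Sult1e1. For the split on Glul, 1247 were called, against 551 with DESeq2, 588 to 1272 with 1 rat left out, 419 with both stricter limits on nuclei, 815 with a marker sum of at least 3, 144 in thinned nuclei and 112 without Sult1e1. Without the rat as a block 0 were called by edgeR, with 653 at an unadjusted p under 0.05. The cause of these changes was not tested.

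The strain difference in the share of members ranged from -1.72 to 7.39 percentage points with 1 rat left out, and turned to -0.232 without DA-1 and -1.72 without LEW-1. In the top 10% of Visium spots genes called higher had a median log2 ratio of 0.0295 (section A) or 0.0402 (section B), and genes called lower one of -0.0616 (section B). Deviations from the strain mean of rats with the same replicate number had a correlation of 0.24. With 2 rats per strain this is a single value and cannot decide whether the numbers pair rats. The study speaks of 2 pairs of LEW and DA rats for the nuclei and does not say how they were paired. The main comparison of strains used no replicate block and called 83 genes, and with a block 160 were called. Over all alternatives in which they had a value, 0 of the genes named by largest change reversed. They were picked as called genes with large changes, so this is no support for their directions. Of all first calls tested against periportal-free nuclei, 1891 of 2461 had the opposite sign there. Calls of the named genes were lost in 27 values and kept in 330 for members against others, 20 and 280 between strains, 45 and 109 for the strain effects, and 33 and 259 for the split on Glul. Leaving out nuclei of other cell types, Sult1e1 or the TMM factors was chosen after seeing the data. With 2 rats per strain and medians of 1402.5 to 1692.5 UMIs per member, genes of low level were not testable.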
